A study of Mus musculus with 10 samples.

Results

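Fc receptors bind the constant part of antibodies, and 10 mouse genes of the receptors and their signalling partners are described here. They are the Fc gamma receptor genes *Fcgr1*, *Fcgr2b*, *Fcgr3* and *Fcgr4*, the receptor gene *Trem2*, the adaptor genes *Fcer1g* and *Tyrobp*, the kinase genes *Syk* and *Btk* and the phospholipase gene *Plcg2*. They were chosen by name, and all 10 were found among the 24062 genes listed in every library. RNA was sequenced from 10 libraries of cells grown from LSK (Lin-SCA1+KIT+) marrow progenitors of C57BL/6J mice. The no Notch control (4 libraries, labelled IgG) was grown on plate-bound human IgG1 and collected on day 14, and no sort of its cells is stated. DN1 (KIT++CD44+CD25-), DN2a (KIT++CD44+CD25+) and DN2b (KIT+CD44lo CD25+) cells (2 libraries each) were sorted from cultures on a high density of the Notch ligand Delta1ext-IgG. DN stands for double negative, the early stages of T cell development that lack CD4 and CD8.

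Every culture received SCF, FLT-3 ligand, IL-6 and IL-11. IL-7 was added for DN2a and DN2b cells but not for DN1 cells. Stage and IL-7 therefore cannot be told apart between DN1 and the DN2 stages. The paper states IL-7 only for Delta1ext-IgG cultures, at day 14, the day on which the controls were collected. As stated, DN2a and DN2b thus also differed from the control by IL-7 and time in culture. These cannot be told apart from the Notch ligand. Because Delta1ext-IgG is an IgG fusion, the plates of every group carried an IgG constant part, and no comparison sets cells with plate-bound IgG against cells without it. The DN labels carry dates, of which those of replicate 1 are the earlier ones at each stage, and values are given for replicate 1 and then replicate 2. DN2a and DN2b libraries of one replicate number carry the same date. The control labels carry the letters and numbers D1, D2, R1 and R2, and values are given in that order.

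Fc gamma receptors are the receptors for IgG. *Fcgr1*, *Fcgr3* and *Fcgr4* encode activating receptors that need the adaptor FcRγ, the product of *Fcer1g*, whereas *Fcgr2b* encodes the inhibitory receptor of the family, which carries its own inhibitory motif. *Tyrobp* encodes DAP12, an adaptor for TREM2 and many other myeloid and NK receptors. Both adaptors carry an immunoreceptor tyrosine-based activation motif (ITAM), which Src-family kinases phosphorylate and to which the kinase SYK then binds. SYK and the kinase BTK act on PLCγ2, which leads to calcium release. Macrophages, neutrophils and mast cells use this pathway, B cells share its lower part, and T cells run a parallel pathway with CD3 chains, ZAP-70 and PLCγ1.

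Several members lie near each other on chromosome 1 (mm10, GENCODE vM21). *Fcgr2b* spans chr1:170958617-170976547, *Fcgr4* chr1:171018920-171029761, *Fcgr3* chr1:171051174-171064935 and *Fcer1g* chr1:171229572-171234365. The others are *Fcgr1* at chr3:96282909-96293969, *Trem2* at chr17:48346401-48354147, *Tyrobp* at chr7:30413760-30417585, *Plcg2* at chr8:117498291-117635142, *Syk* at chr13:52583173-52648792 and *Btk* at chrX:134542336-134583570. Of all 36-base stretches in the exons of *Fcgr3*, the read length that was aligned, 12.0% were shared with another gene, and 7.57% of those of *Fcgr2b* were. The levels of these 2 genes are uncertain to that extent. The share was 0.573% for *Fcgr4* and 0 for the other members. The *Fcgr2b* share includes 2.15% shared with the antisense gene *Gm38204*, which overlaps 155 of its exon bases (2.68%). Whether the counting used strand is not given in the sources used here.

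Printed next are the 250 bases before the start of *Fcgr1*, *Fcgr3*, *Fcgr4* and *Trem2*, the receptor genes with the largest reductions, and of *Fcgr2b*, the receptor gene that kept at least 12.9 CPM (CPM being a gene's count scaled to a fixed library size, with TMM scaling) in each DN library. They are RefSeq windows on GRCm38.p6 (mm10), written 5′ to 3′ in the gene's direction. Capitals mark CTTCCTC, the opposite-strand reading of GAGGAAG, a motif of the myeloid and B cell factor PU.1.
Fcgr1 (chr3:96293970-96294219, minus strand): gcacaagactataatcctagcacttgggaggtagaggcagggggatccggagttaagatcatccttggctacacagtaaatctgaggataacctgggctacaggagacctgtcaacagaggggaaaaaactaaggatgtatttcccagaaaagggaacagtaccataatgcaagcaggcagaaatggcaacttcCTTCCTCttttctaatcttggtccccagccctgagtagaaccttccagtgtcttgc
Fcgr3 (chr1:171059395-171059644, minus strand): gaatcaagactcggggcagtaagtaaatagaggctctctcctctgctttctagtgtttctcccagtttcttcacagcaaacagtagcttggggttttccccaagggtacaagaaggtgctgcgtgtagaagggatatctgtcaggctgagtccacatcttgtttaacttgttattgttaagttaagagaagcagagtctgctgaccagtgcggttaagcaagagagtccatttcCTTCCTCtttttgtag
Fcgr4 (chr1:171018676-171018925, plus strand): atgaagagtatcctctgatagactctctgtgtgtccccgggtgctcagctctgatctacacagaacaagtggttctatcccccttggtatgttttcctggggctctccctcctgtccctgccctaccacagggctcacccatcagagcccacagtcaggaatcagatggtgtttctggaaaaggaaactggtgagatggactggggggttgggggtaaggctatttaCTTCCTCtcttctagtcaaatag
Trem2 (chr17:48346151-48346400, plus strand): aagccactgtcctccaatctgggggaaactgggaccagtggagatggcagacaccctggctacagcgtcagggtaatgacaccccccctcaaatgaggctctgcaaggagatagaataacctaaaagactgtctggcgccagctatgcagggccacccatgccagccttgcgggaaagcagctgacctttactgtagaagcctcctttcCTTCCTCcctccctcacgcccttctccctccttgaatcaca
Fcgr2b (chr1:170976072-170976321, minus strand): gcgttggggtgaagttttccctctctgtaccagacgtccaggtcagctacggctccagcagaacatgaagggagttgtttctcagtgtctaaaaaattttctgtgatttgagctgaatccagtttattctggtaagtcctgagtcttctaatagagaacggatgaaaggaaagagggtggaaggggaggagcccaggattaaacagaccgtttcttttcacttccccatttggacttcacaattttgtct
Among the 9 members with a window, those letters were found in *Fcgr1*, *Fcgr3*, *Fcgr4* and *Trem2*, starting 56, 16, 23 and 41 bases before the start. Both strands were searched, and 10.6% of all 32851 windows of 250 bases held the letters. GTGGGAA, a motif of the Notch partner RBPJ, occurred in 0 members' windows and in 5.42% of all. The match is a description of letters and not of binding. The observed to expected CpG ratio, over windows that run on to 50 bases past the start, was 0.0631 for *Fcgr1*, 0.103 for *Fcgr4*, 0.221 for *Trem2*, 0.353 for *Fcgr2b*, and 0.201 and 0.263 for 2 starts of *Fcgr3*, against a median of 0.384 over all windows. *Btk* was at 0.179, *Fcer1g* at 0.317 and *Plcg2* at 0.787, and the first and second *Syk* starts at 0.800 and 0.123. The RefSeq starts of *Fcgr3* and *Fcgr2b* lie inside the longer GENCODE genes.

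Reads counted on genes numbered 12354635 to 35367925 per library, and 3 counts, used here as the detection floor, equalled 0.0848 to 0.243 CPM before library sizes were scaled. Macrophage and monocyte markers summed to 9017 to 18533 CPM in the control libraries and to 338 and 84.0 CPM in DN1 replicates 1 and 2. In DN2 libraries they summed to 14.4 to 48.7 CPM, and *C1qa* was at 0 in all 6 DN libraries. *Lyz2* held 50.7 to 70.8% of this sum in the controls and 66.4% in DN1 replicate 1. *Emr1* held 81.9% of it in DN2b replicate 2. Among these markers *Csf1r* ranged over 591 to 1303 CPM in controls and 0 to 23.8 CPM in DN libraries, *Emr1* over 211 to 1109.6 CPM in controls and 0.199 to 39.9 CPM in DN libraries and *Cd68* over 321 to 1662 CPM in controls and 0.796 to 11.9 CPM in DN libraries. Neutrophil lineage markers summed to 21267 to 72213 CPM in controls, 2501 and 79.8 CPM in DN1 and 1.53 to 20.9 CPM in DN2 libraries. Mast cell and basophil markers summed to 82.7 to 299 CPM in controls, 1659.9 and 478 CPM in DN1 and 261 to 582 CPM in DN2 libraries. *Mpo*, a neutrophil lineage marker, ranged over 2956 to 14438 CPM in controls and 0.0667 to 343 CPM in DN libraries, and the mast cell marker *Cpa3* over 8.57 to 69.3 CPM in controls and 257 to 986 CPM in DN libraries. *Cpa3* held most of the mast cell sum in the DN2 libraries, and of the 10 genes of that list it alone was called higher in DN2b than in the control, where 8 were called lower, or 6 of 8 without *Tpsb2* and *Prss34*, which passed the filter on low counts through the controls alone (22.5% of all genes were called lower). DN1 replicate 1 therefore stood above DN1 replicate 2 in all of these sums. The part of these cell types in the results was not tested. In bulk RNA, fewer cells of a type and less RNA per cell cannot be told apart.

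**Figure D1:**
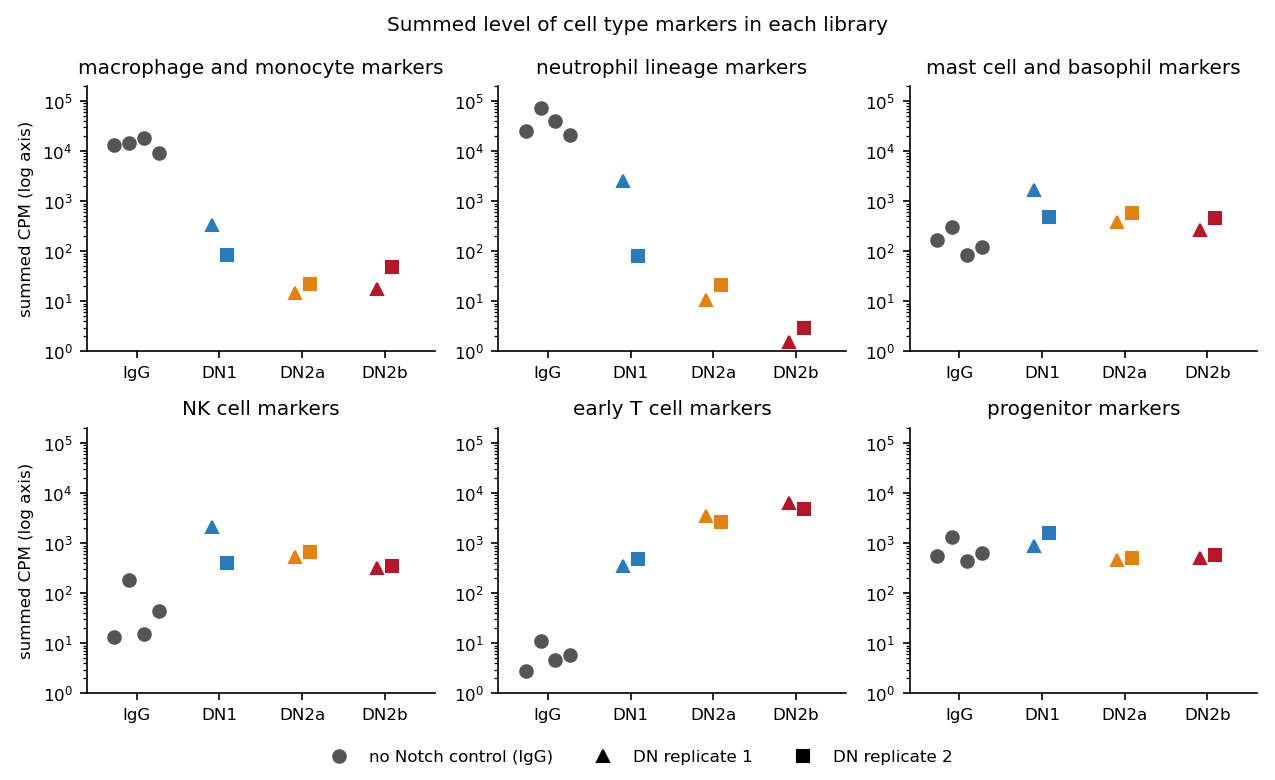
Summed CPM of marker genes of several cell types (log axis) in each of the 10 libraries, control and DN. Circles are control libraries, and triangles and squares are DN replicates 1 and 2. Macrophage and monocyte markers summed to 9017 to 18533 CPM in controls and to 14.4 to 338 CPM in DN libraries, and early T cell markers to 2.80 to 11.2 CPM and 353 to 6369.9 CPM.

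Early T cell markers summed to 2.80 to 11.2 CPM in controls and climbed through the stages, with 353 to 484 CPM in DN1, 2688 to 3565 CPM in DN2a and 4892 to 6369.9 CPM in DN2b. *Cd3e* was at 0 in all 4 controls, and *Il2ra*, which encodes CD25, ranged over 0.392 to 2.07 CPM in controls and 18.9 to 2175 CPM in DN libraries. *Il2ra* held 43.5 to 45.5% of the early T cell sum in DN2a and 34.1 to 35.3% in DN2b. DN1 cells were sorted as CD25- and DN2 cells as CD25+, so the step between them is not independent of the sort. NK cell markers summed to 13.7 to 188 CPM in controls and 316 to 2104 CPM in DN libraries, dendritic cell markers to 29.6 to 372 CPM and 6.60 to 117 CPM, B cell markers to 5.99 to 20.4 CPM and 7.44 to 14.2 CPM, and progenitor markers to 449 to 1345 CPM and 464 to 1589 CPM. Single genes carried several of these sums. *Gzmb* and *Nkg7* carried the NK cell sum in DN libraries, where *Ncr1*, *Prf1* and *Eomes* reached at most 1.11, 0.853 and 0.259 CPM, and *Cd79b* led the B cell sum in all 10 libraries. The B cell marker *Ms4a1* was at 0 in all 6 DN libraries.

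Most members were far lower in DN cells than in cells grown without Notch ligand. In DN1, 8 of the 10 passed an adjusted p under 0.05 (edgeR quasi-likelihood, corrected by Benjamini-Hochberg across 12221 genes) and all of them were lower, where 31.4% of all genes passed, 17.0% lower and 14.3% higher. Of those all-gene calls 54.3% were lower, and 38.6% were with library size only in place of TMM. In DN2a, 8 were lower, where 45.5% of all genes passed, 24.3% lower and 21.2% higher. In DN2b, 9 were lower, where 42.5% passed, 22.5% lower and 19.9% higher. The median log2FC of the members was -3.24, -3.21 and -4.46 in this order, against 0.01, -0.05 and -0.05 for all genes. Over the 7 members that reached 1 CPM in at least 2 DN libraries it was -2.01, -2.93 and -3.60. These comparisons share their control libraries. *Btk* passed in none of them by edgeR with all libraries, but passed in DN2b by DESeq2 (adjusted p = 0.0378) and by edgeR without control library D2 (adjusted p = 0.0359). *Plcg2* passed in DN2b, and in DN2a under 5 other settings (adjusted p from 0.0140 by DESeq2 to 0.0446 by edgeR without DN2b replicate 1).

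Counting instead the members whose DN libraries all lay below all controls gave 8 in DN1, 9 in DN2a and 9 in DN2b, and 0 lay above. Over all genes tested, DN1 lay below for 25.5% and above for 23.5%, DN2a for 32.5% and 30.6%, and DN2b for 30.8% and 28.2%. All 10 members passed the filter on low counts (1 CPM in at least 2 libraries). *Fcgr1*, *Fcgr4* and *Trem2* did so through the control libraries alone, and passing through 1 side alone favours a difference. Without these 3, 5, 5 and 6 of the other 7 members were called lower in DN1, DN2a and DN2b. No p is given here for a gene that passed in that way. The DN1 count fell to 5 without control library D1 or R1, where *Fcgr3*, *Fcer1g* and *Tyrobp* no longer passed. Calls over all genes fell from 3834 of 12221 to 3246 of 12151 and 2611 of 12140 in these 2 fits.

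**Figure D2:**
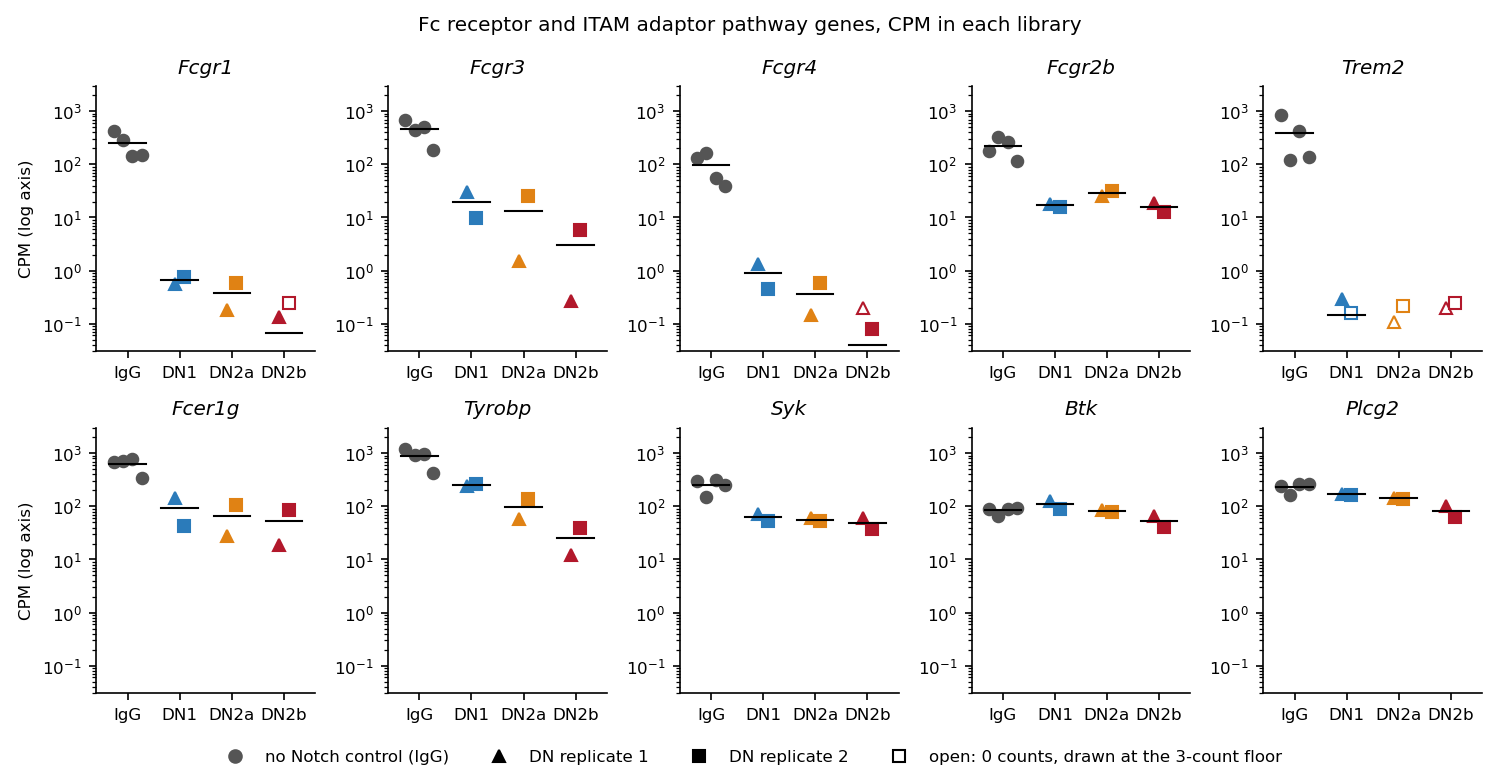
CPM of each of the 10 genes (log axis) in each control and DN library, with group means as bars and libraries with 0 counts as open symbols at the level of 3 counts. Circles are control libraries, and triangles and squares are DN replicates 1 and 2. *Fcgr1*, *Fcgr4* and *Trem2* are at 1.33 CPM or less in DN libraries, *Fcgr2b* stays between 12.9 and 31.9 CPM there, and *Btk* stays between 41.5 and 128 CPM in all libraries.

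*Fcgr1*, the high-affinity IgG receptor of monocytes and macrophages, was at 427, 291, 141 and 152 CPM in the control libraries. It was at 0.556 and 0.747 CPM in DN1 and 0.179 and 0.594 CPM in DN2a, and the DN2b libraries held 2 and 0 counts. The DN libraries were all under 1 CPM, and all below every control. The log2FC was -8.60 ± 0.82 (SE) in DN1 and -9.51 ± 0.87 in DN2a. Control level exceeded that of DN2b 3071-fold (95% exact interval 850.0 to 25357, counting error only).

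*Fcgr3*, the low-affinity activating receptor of most myeloid cells, mast cells and NK cells, was at 683, 447, 514 and 185 CPM in controls. It was at 30.02 and 9.97 CPM in DN1, 1.503 and 25.4 CPM in DN2a and 0.267 and 5.73 CPM in DN2b. No DN library reached a control, but libraries of one stage differed widely, replicate 1 being the higher in DN1 and the lower in DN2a and DN2b. The log2FC was -4.51 ± 1.36 in DN1 (adjusted p = 0.0332), -5.11 ± 1.42 in DN2a (adjusted p = 0.0167) and -7.27 ± 1.60 in DN2b (adjusted p = 0.00661). The DN2a call was lost without DN2a replicate 1 (adjusted p = 0.0806), and the DN1 call without either DN1 library (adjusted p = 0.0829 and 0.176).

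*Fcgr4*, an activating receptor of monocytes, macrophages and neutrophils, was at 131, 166, 56.5 and 39.2 CPM in controls. It was at 1.33 and 0.448 CPM in DN1 and 0.143 and 0.594 CPM in DN2a, and the DN2b libraries held 0 and 1 counts. Every DN library lay below every control. The log2FC was -6.74 ± 0.94 in DN1 and -8.23 ± 1.05 in DN2a. The control exceeded DN2b 2367-fold (95% exact interval 425 to 93491, counting error only).

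*Trem2*, a lipid-binding receptor of macrophages and microglia that signals through DAP12, was at 855, 124, 433 and 137 CPM in controls, a wide spread. It had 8 counts in DN1 replicate 1 and 0 in the other 5 DN libraries. The control exceeded DN1 2056-fold (95% exact interval 1044 to 4764, counting error only). Against a floor of 3 counts per library, *Trem2* was at least 2347-fold lower in DN2a and at least 1765-fold lower in DN2b. Control library D1 was the highest, and without it the ratio for DN1 was 1457 and the bounds for DN2a and DN2b were 1402-fold and 1054-fold.

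*Fcgr2b*, the inhibitory receptor, fell to between 12.9 and 31.9 CPM in the DN libraries. The controls were at 175, 327, 264 and 114 CPM. DN1 libraries were at 18.2 and 15.8 CPM, DN2a libraries at 25.9 and 31.9 CPM and DN2b libraries at 18.5 and 12.9 CPM. All were below every control and well above the floor. The log2FC was -3.70 ± 0.47 in DN1 (adjusted p = 0.000915), -2.93 ± 0.44 in DN2a (adjusted p = 0.00115) and -3.81 ± 0.47 in DN2b (adjusted p = 0.000488). DN2b differed from DN1 by -0.11 ± 0.45 (95% interval -1.11 to 0.89, adjusted p = 0.944).

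The ratio of *Fcgr2b* to *Fcgr3* reads per kb of exon, inhibitory against activating, was 0.0769 to 0.219 in the controls. For DN1 it was 0.181 and 0.475, for DN2a 5.17 and 0.377, and for DN2b 20.8 and 0.675. Apart from DN1 replicate 1, all DN libraries were above every control. The value of DN2b replicate 1 rests on 4 *Fcgr3* reads. The ratio was not tested between groups.

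**Figure D3:**
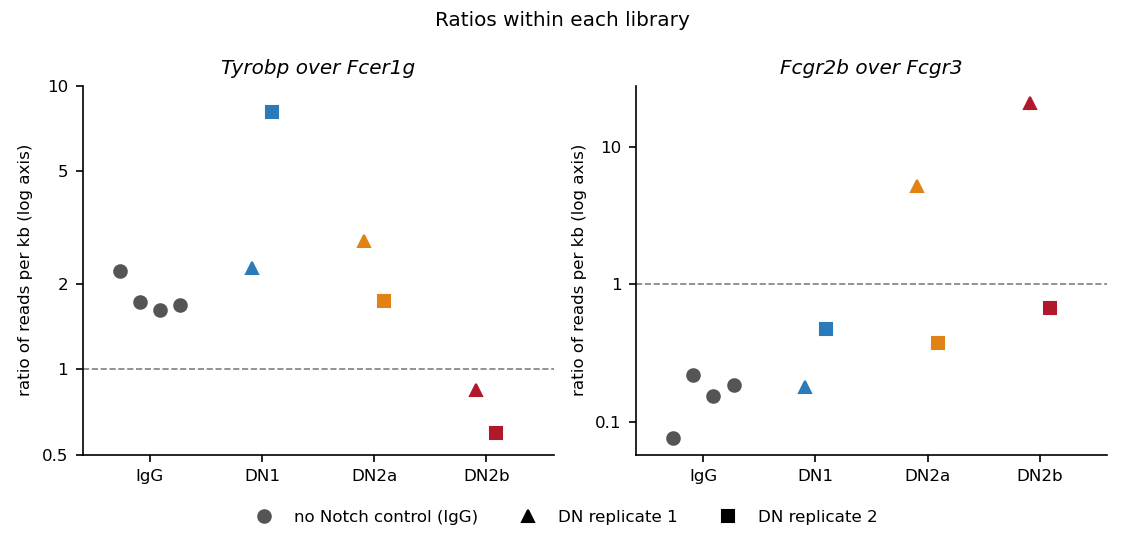
Ratio of reads per kb of exon within each library (log axis), for *Tyrobp* over *Fcer1g* and for *Fcgr2b* over *Fcgr3*, by group. Circles are control libraries, and triangles and squares are DN replicates 1 and 2. *Tyrobp* over *Fcer1g* is 1.63 to 2.22 in controls and 0.597 to 0.848 in DN2b, and *Fcgr2b* over *Fcgr3* is 0.0769 to 0.219 in controls and 0.675 to 20.8 in DN2b.

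*Fcer1g*, whose product FcRγ also serves the IgE receptor, was at 701, 714, 784 and 339 CPM in controls. It was at 142 and 42.2 CPM in DN1, 27.3 and 105 CPM in DN2a and 19.1 and 85.4 CPM in DN2b. All DN libraries were below every control and none was near the floor. As for *Fcgr3*, replicate 1 was the higher in DN1 and the lower in DN2a and DN2b. The log2FC was -2.78 ± 0.84 in DN1 (adjusted p = 0.0324), -3.27 ± 0.86 in DN2a (adjusted p = 0.0133) and -3.60 ± 0.88 in DN2b (adjusted p = 0.0105). The DN1 call was lost without DN1 replicate 2 (adjusted p = 0.179) and without control library D1 or R1 (adjusted p = 0.0532 and 0.0628), and the DN2a and DN2b calls without that stage's replicate 1 (adjusted p = 0.104 and 0.0711). DN2b differed from DN1 by -0.82 ± 0.84 (95% interval -2.71 to 1.07, adjusted p = 0.726).

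*Tyrobp* was at 1185, 942, 974 and 435 CPM in controls. It was at 246 and 261 CPM in DN1, 59.0 and 139.5 CPM in DN2a and 12.3 and 38.9 CPM in DN2b. The groups did not overlap, and the levels stepped down from control to DN1, DN2a and DN2b. The log2FC against the control was -1.80 ± 0.58 in DN1 (adjusted p = 0.0411), -3.16 ± 0.63 in DN2a (adjusted p = 0.00381) and -5.11 ± 0.70 in DN2b (adjusted p = 0.000763). The DN1 call was lost without any one of 5 libraries, both of DN1 and D1, D2 and R1 of the control (adjusted p from 0.0584 to 0.160), and with library size only (adjusted p = 0.0540).

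*Tyrobp* was also the one member that passed between DN stages, 9.90-fold lower in DN2b than in DN1 (log2FC -3.31 ± 0.67, adjusted p = 0.0426). In that comparison 1.91% of all genes passed, 0.892% lower and 1.01% higher, and 46.8% of the calls were lower against 56.8% with library size only and 58.8% by DESeq2. The call was lost in 9 of the 10 fits that left out 1 library, with an adjusted p of 0.0548 to 0.239, and stayed without control library R2 (adjusted p = 0.0434). Its log2FC over these 10 fits ran from -4.36 without DN2b replicate 2 to -2.70 without DN2b replicate 1. From DN1 to DN2a the difference was -1.35 ± 0.62 (adjusted p = 0.478), and from DN2a to DN2b -1.95 ± 0.64 (adjusted p = 1).

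*Tyrobp* reads per kb of exon exceeded those of *Fcer1g* 1.63 to 2.22 times in the controls. For DN1 the ratio was 2.27 and 8.11, for DN2a 2.83 and 1.75, and for DN2b 0.848 and 0.597. Only the DN2b libraries were below 1. The ratio was not tested between groups.

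*Syk*, the kinase that binds phosphorylated ITAMs, was at 306, 149.6, 309 and 257 CPM in controls. It was at 72.5 and 53.9 CPM in DN1, 60.9 and 52.4 CPM in DN2a and 59.3 and 37.5 CPM in DN2b. All DN libraries were below every control, and the DN stages overlapped one another. The log2FC was -2.01 ± 0.36 in DN1 (adjusted p = 0.00380), -2.17 ± 0.36 in DN2a (adjusted p = 0.00171) and -2.40 ± 0.37 in DN2b (adjusted p = 0.00124). DN2b differed from DN1 by -0.38 ± 0.38 (95% interval -1.23 to 0.46).

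*Btk*, a Tec-family kinase, was at 90.5, 65.5, 91.1 and 91.8 CPM in controls. It was at 128 and 90.8 CPM in DN1, 85.1 and 78.0 CPM in DN2a and 66.7 and 41.5 CPM in DN2b. Each DN group overlapped the control. The log2FC was 0.37 ± 0.26 in DN1 (95% interval -0.20 to 0.95, adjusted p = 0.296), -0.05 ± 0.26 in DN2a (-0.64 to 0.53, adjusted p = 0.877) and -0.65 ± 0.27 in DN2b (-1.25 to -0.05, adjusted p = 0.0771). DN2b differed from DN1 by -1.02 ± 0.30 (adjusted p = 0.156), with both DN2b libraries below both DN1 libraries.

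*Plcg2*, the phospholipase downstream of SYK and BTK, was at 241, 167, 265 and 262 CPM in controls. It was at 171 and 167 CPM in DN1, 144 and 141 CPM in DN2a and 100.1 and 61.8 CPM in DN2b. DN2a and DN2b lay below every control, and DN1 overlapped the lowest one. The log2FC was -0.47 ± 0.27 in DN1 (adjusted p = 0.204), -0.72 ± 0.27 in DN2a (adjusted p = 0.0532) and -1.53 ± 0.28 in DN2b (adjusted p = 0.00285). DN2b differed from DN1 by -1.06 ± 0.30 (adjusted p = 0.141).

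**Figure D4:**
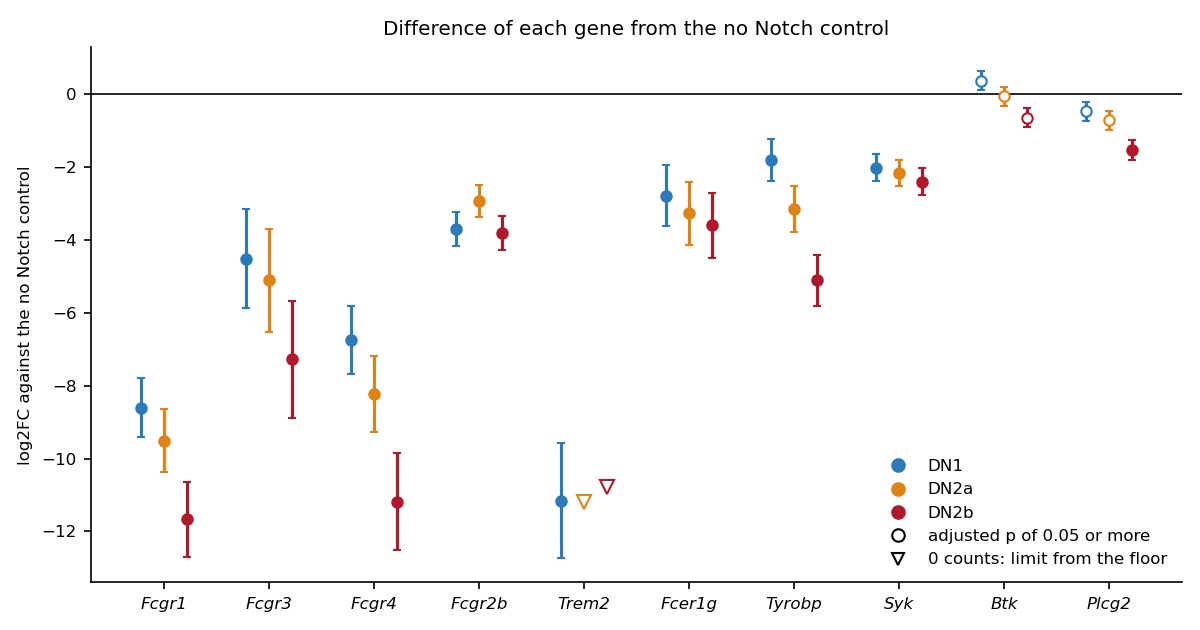
log2FC of each gene in DN1, DN2a and DN2b against the no Notch control, with the SE as bars. Filled circles have an adjusted p under 0.05, and the open *Trem2* triangles are bounds from a floor of 3 counts per library. *Fcgr1*, *Fcgr4* and *Trem2* passed the filter on low counts through the controls alone, so a filled circle of theirs is not to be read as a test. *Fcgr1*, *Fcgr3*, *Fcgr4* and *Trem2* are at -4.51 or lower, *Syk* is between -2.40 and -2.01 and *Btk* between -0.65 and 0.37.

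Per kb of exon, the adaptors had the highest mean levels in the controls, *Tyrobp* at 1325 ± 477 CPM per kb (SD, n = 4) and *Fcer1g* at 726 ± 229. They were followed by *Fcgr3* at 263 ± 119, *Fcgr1* at 97.6 ± 51.9, *Trem2* at 78.3 ± 69.4, *Fcgr4* at 78.1 ± 47.9, *Plcg2* at 54.4 ± 10.6, *Fcgr2b* at 38.0 ± 16.3, *Syk* at 27.3 ± 7.93 and *Btk* at 26.9 ± 4.07. Of neighbours in this order, *Fcer1g* and *Fcgr3* were the one pair whose means ± SD did not overlap. In DN2b the order was *Fcer1g* (59.8 ± 53.7 CPM per kb, n = 2), *Tyrobp* (38.4 ± 28.2), *Plcg2* (18.8 ± 6.29), *Btk* (17.2 ± 5.65), *Syk* (5.17 ± 1.65), *Fcgr2b* (2.71 ± 0.690) and *Fcgr3* (1.73 ± 2.23), and the remaining receptors were at or near 0. Among these named neighbours, *Btk* and *Syk*, and *Syk* and *Fcgr2b*, did not overlap.

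Between DN stages, *Tyrobp* was the one member past the threshold. With 2 libraries a stage, a p that misses it does not show that levels were alike. In DN2a against DN1, 0 of the 10 passed (edgeR), where 0.401% of all genes did, 0.205% lower and 0.196% higher (51.0% of calls lower, 73.6% by DESeq2), and 0 members had an unadjusted p under 0.05, where 10.9% of all genes did. In DN2b against DN2a, 0 members passed, as did 0.00% of all genes, and *Tyrobp* and *Plcg2* had an unadjusted p under 0.05 (0.0127 and 0.0246, edgeR), where 2.74% of all genes did. DESeq2 called 0 members in both, against 3.88% and 0.237% of all genes. In DN2b against DN1, 5 members had an unadjusted p under 0.05 (edgeR), where 13.9% of all genes did. Among them *Fcgr1* and *Fcgr4* held 2 and 1 counts over the DN2b libraries and had passed the filter through the controls alone. DESeq2 called 3, *Tyrobp*, *Btk* and *Plcg2*, where it called 6.73% of all genes.

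By ranges, 3 members lay lower in DN2a than in DN1 without overlap and *Fcgr2b* lay higher, against 22.4% and 20.9% of all genes. From DN2a to DN2b 6 lay lower and 0 higher, against 15.8% and 14.6%, and from DN1 to DN2b 6 lay lower and 0 higher, against 22.1% and 20.6%. Within the pairs of DN2a and DN2b libraries that share a date, 9 members were lower in DN2b in both pairs and 0 were higher, where 33.7% and 28.1% of all genes were. *Fcgr1* and *Fcgr4*, which passed the filter through the controls alone, are in that count and in both counts of 6. They held 13 and 12 counts over the DN2a libraries and 2 and 1 over the DN2b libraries, so their step lies near the floor. *Fcgr3* was at 1.503 and 0.267 CPM in DN2a and DN2b of replicate 1 and at 25.4 and 5.73 CPM in those of replicate 2. *Fcer1g* was at 27.3 and 19.1 CPM and at 105 and 85.4 CPM in the same order.

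Other genes of the pathway were counted in lists, some of whose genes also stand in marker lists (*Itgam*, *Siglech*, *Fcer1a*, *Ms4a2*, *Lck* and the CD3 and CD79 chains). The first list holds myeloid receptors, most of which signal through ITAM adaptors, though Dectin-1 carries a related motif in its own tail and the product of *Treml1* an inhibitory one. Of the 16 tested, 13, 14 and 15 were lower than the control in DN1, DN2a and DN2b, and 0 were higher, with a median log2FC of -4.52, -7.41 and -8.05. Of all genes, 17.0%, 24.3% and 22.5% were lower in these stages and 14.3%, 21.2% and 19.9% higher, and the list counts that follow stand beside the same shares. As 8 of the 16 passed the filter through the controls alone, the count among the other 8 was 6, 7 and 8, with a median of -3.76, -5.75 and -6.50. The lectin genes *Clec5a* and *Clec7a*, the latter encoding Dectin-1, were at 196 ± 17.1 and 142 ± 72.2 CPM in controls (SD, n = 4) and had 0 counts in DN2b. *Clec5a* was thus at least 891-fold lower (adjusted p = 0.000299) and for *Clec7a*, which passed through the controls alone, the bound was 645-fold.

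**Figure D5:**
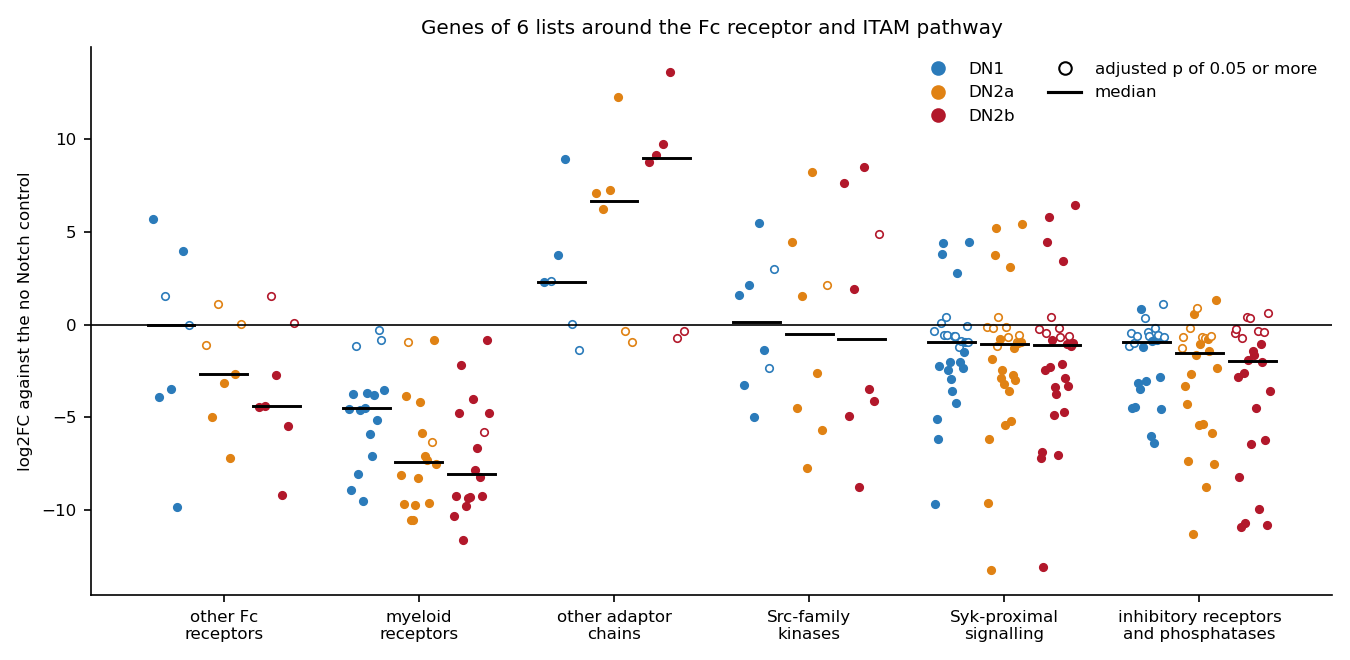
log2FC against the no Notch control of the tested genes of each pathway list, in DN1, DN2a and DN2b. Each circle is a gene, filled where the adjusted p is under 0.05, and each bar a median. The myeloid receptors have medians of -4.52, -7.41 and -8.05 over the 16 genes tested, and of the 6 other adaptor chains the 4 that passed the filter through DN libraries alone lie highest.

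Of 6 other adaptor chains 3, 4 and 4 were higher in the same order of stages and 0 were lower. The 4 that were higher were genes that passed the filter through DN libraries alone, and 0 of the other 2 (*Cd79b* and *Hcst*) were called, with a median log2FC of -0.69, -0.64 and -0.51. *Cd3g*, a CD3 chain with an ITAM, rose from 0.123 ± 0.0519 CPM in controls to 1621 ± 562 CPM in DN2b (log2FC 13.63 ± 0.65). *Cd3e* had 0 counts in controls and 103 ± 11.7 CPM in DN2b, at least 849-fold higher. *Hcst*, which encodes DAP10, an adaptor without an ITAM, was at 29.3 ± 18.6 CPM in controls and 23.5 ± 6.68 CPM in DN2b and did not pass (adjusted p = 0.647).

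Of 8 Src-family kinases, 3 were lower and 3 higher in DN1, and 4 lower and 3 higher in DN2a and again in DN2b, with medians of 0.13, -0.52 and -0.76. Among the 5 that did not pass the filter through 1 side alone, 3 were lower and 2 higher in each stage, with medians of -1.34, -2.59 and -3.47. *Fgr*, a kinase of myeloid cells, fell from 132 ± 23.7 CPM in controls to 4.42 ± 1.06 CPM in DN2b (log2FC -4.91 ± 0.33). *Lyn*, which phosphorylates FcRγ, stepped down over 280.2 ± 19.9 CPM in controls, 111 ± 26.5 in DN1, 46.7 ± 6.97 in DN2a and 25.3 ± 0.750 in DN2b, and was lower in DN2b than in DN1 (log2FC -2.13 ± 0.25, adjusted p = 0.00531). *Blk*, a kinase of B cells and some T cells, had 0 counts in controls and 7.54 and 40.1 CPM in the DN2b libraries, which put them at least 62.1-fold and 330.3-fold higher than the floor of the controls.

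Of 28 genes that act near SYK, 13, 16 and 17 were lower and 4 were higher in each stage, with medians of -0.93, -1.06 and -1.11. The 4 higher are 1 in 7 of the list, no more than the share of all genes that was higher. Among the 25 genes that did not pass the filter through 1 side alone, 12, 15 and 16 were lower and 2 higher, with medians of -0.93, -1.15 and -1.14. Those that rose included *Zap70*, *Plcg1* and *Lat*, which act in T cell receptor signalling. *Zap70*, the relative of *Syk*, was at 0.0296 ± 0.0415 CPM in controls and 3.48 ± 0.588 CPM in DN2b (log2FC 6.43 ± 0.93). *Plcg1*, the relative of *Plcg2*, rose from 8.66 ± 2.67 to 94.7 ± 9.75 CPM (log2FC 3.45 ± 0.26, adjusted p = 4.37e-05).

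Among those that fell, *Cybb*, the catalytic subunit gene of the phagocyte oxidase, had 104713 counts over the controls and 3 over the DN2b libraries (adjusted p = 0.000626). *Blnk*, an adaptor for PLCγ2, had 1831 and 4 counts, and 1 control library at 74.8 CPM carried most of the former, the other 3 controls lying at 3.20 to 9.10 CPM. *Lat2*, an adaptor of mast cells, B cells and myeloid cells, was at 94.9 ± 55.9 CPM in controls and 19.5 ± 0.167 CPM in DN2b (log2FC -2.28 ± 0.62, adjusted p = 0.0165).

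The next list holds 24 inhibitory receptors, phosphatases and related signalling genes such as the kinase gene *Csk*. Of these, 12, 15 and 16 were lower and 1, 2 and 0 higher in DN1, DN2a and DN2b, with medians of -0.93, -1.55 and -1.96. Among the 22 that did not pass the filter through the controls alone, 10, 13 and 14 were lower, with medians of -0.85, -1.35 and -1.77. Those higher were *Csk* in DN1 and *Csk* and *Ubash3a* in DN2a, which encode inhibitors of T cell receptor signalling among other roles. *Sirpa*, the CD47 receptor of phagocytes, fell from 937 ± 466 to 0.531 ± 0.374 CPM (log2FC -10.81 ± 0.89, adjusted p = 6.30e-05), and *Cd300lf* had 8710 counts in controls and 1 in DN2b. *Inpp5d*, which encodes SHIP1, the phosphatase recruited by FcγRIIB, was at 224 ± 83.1 CPM in controls and 82.9 ± 0.987 CPM in DN2b (log2FC -1.44 ± 0.34, adjusted p = 0.00951). *Ptpn6*, which encodes SHP-1, was at 330.5 ± 86.1 and 81.9 ± 12.4 CPM (log2FC -2.01 ± 0.29, adjusted p = 0.000926).

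Of 7 other Fc receptor genes tested, 3, 4 and 5 were lower and 2, 0 and 0 higher, with medians of -0.02, -2.66 and -4.39. Leaving out *Fcrls* and *Fcrlb*, which passed the filter through the controls alone, 1, 2 and 3 of 5 were lower, with medians of 1.53, -1.11 and -4.39. The 2 that were higher in DN1 were *Fcer1a* and *Ms4a2*, the other chains of the IgE receptor that FcRγ completes. *Fcer1a* was at 3.28 ± 2.47 CPM in controls, at 62.0 to 268 CPM in the DN1 libraries (log2FC 5.67 ± 0.92, adjusted p = 0.00268), and lower in DN2b than in DN1 (log2FC -10.11 ± 1.64, adjusted p = 0.0203). *Ms4a2* was at 5.17 ± 3.70 CPM in controls and 41.4 to 123 CPM in DN1 (log2FC 3.998 ± 0.78, adjusted p = 0.00561). Both genes also stand in the mast cell and basophil list, whose sum was 1659.9 CPM in DN1 replicate 1. *Fcrls* and *Fcrlb*, Fc receptor-like genes, had 1 and 0 counts in DN2b against 2287 and 164 in controls.

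Across the 10 libraries, the genes whose log2 CPM was most like that of *Fcer1g* were *Hist1h1c* (Pearson r = 0.991), *Kank3* (Pearson r = 0.986), *Gpx3* (Pearson r = 0.986). Those most like *Tyrobp* were *Tmem51* (0.985), *Plek* (0.985), *Cds1* (0.982). The points share their libraries, and both adaptors separate control from DN libraries.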

How the data were processed

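Total RNA was sequenced from 10 libraries of cultured mouse marrow progenitors. The authors aligned the first 36 bases of read 1 to mm10 with TopHat and deposited raw counts per gene from htseq-count (intersection-strict), one file a library. The submitters' processing notes name TopHat2 2.12, Cufflinks 2.2.1 and HTSeq 0.6.1p1. The annotation and strand setting are not given in the sources used here. The 5 summary lines of each file, which held 20.5 to 41.0% of its total, were left out. The 12221 genes that reached 1 CPM in 2 or more libraries were tested with edgeR 4.0.16 (R 4.3.3) by the quasi-likelihood test after TMM scaling, in 1 fit over the 4 groups, with Benjamini-Hochberg adjustment and a prior count of 0.125. SE is the log2FC over the square root of F. DESeq2 1.42.0 and other settings were alternatives, and the fit was tested on simulated data. The authors state that replicates of each stage and of the control came from independent LSK isolates, so that p-values measure the spread between these isolates. They also state that the DN stages were sorted from each isolate. DN2a and DN2b libraries of one number carry the same date and were taken as pairs, while DN1 libraries carry other dates and their pairing was not established. Deviations of same-numbered libraries correlated at 0.0842 between DN1 and DN2a, 0.287 between DN1 and DN2b and 0.270 between DN2a and DN2b. The fit has no block, so that it treats the paired DN2a and DN2b libraries as independent, and a replicate block was an alternative. Exact intervals of ratios, and floors, cover counting error only. Intervals of a log2FC are built on its SE and so include the spread between libraries.

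The members and lists were chosen with earlier results of these data known. Named are all members, from each pathway list the 2 called genes with the largest fitted log2FC in DN2b against the control (for genes at 0 counts this depends on the prior count, so it does not rank their size of change), and close relatives of the members (*Lyn*, *Fgr*, *Zap70*, *Plcg1*, *Blnk*, *Lat2*, *Hcst*, *Inpp5d*, *Ptpn6*). *Lat*, *Csk*, *Ubash3a*, *Fcer1a* and *Ms4a2* were added after their values were seen. Some genes that this rule names are not reported here.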

Additional observations from a re-analysis of the deposited data

Results flagged for a closer look

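*Btk* had 1 control library apart from the others. Library D2 was at 65.5 CPM and the other 3 control libraries were between 90.5 and 91.8 CPM, so that the gap below the others took up 0.948 of the whole range of the 4. The members' control levels made up 10 such groups, of which chance would flag about 1 in 20.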

How the results depend on the processing

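Of the members' log2FC values recomputed under other settings, 982 kept their direction and side of the threshold, 33 no longer passed, 9 newly passed and 14 turned direction. The members called in DN1 against the control fell from 8 to 5 with control libraries D1 and D2 only, or R1 and R2 only. Calls over all genes were 2329 of 11985 and 3432 of 12043 in these fits, against 3834 of 12221. With 1 control library left out, the members called ranged from 5 to 8 and the calls over all genes from 2611 to 4163. In DN2b against DN1 the count of 1 became 3 by DESeq2, 0 with only the 2 groups compared and 0 with DN libraries only, and ran from 0 to 1 when 1 library was left out. A log2FC of at least 2 in size, with no p, was reached by 1 member in DN2a against DN1, 3 in DN2b against DN2a and 5 in DN2b against DN1, where 9.23%, 5.32% and 10.5% of all genes reached it, and with genes at 0 counts at their bound from 3 counts by 0, 3 and 4 members, where 7.87%, 3.95% and 9.14% of all genes did. *Fcgr1* and *Fcgr4*, with 2 and 1 counts over the DN2b libraries, were among the members of that size in DN2b against DN2a and against DN1. The cause was not tested.

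The directions that turned were of differences that had not passed. *Btk* in DN2a against the control was 0.0027 with library size only and 0.013 with controls D1 and D2 only, and ran from -0.16 to 0.0083 with 1 library left out. With 1 library left out, *Fcgr3* in DN2a against DN1 ran from -3.73 to 0.41, *Fcer1g* from -1.75 to 0.64 and *Syk* from -0.36 to 0.072. In DN2b against DN2a *Fcgr3* ran from -5.61 to 0.97, *Fcer1g* from -1.79 to 0.93 and *Syk* from -0.60 to 0.064, although all 3 were lower in DN2b in both pairs. In DN2b against DN1 *Fcgr2b* ran from -0.40 to 0.13 and *Fcer1g* from -2.27 to 0.31.

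With the label year as a replicate block among DN libraries, *Tyrobp* in DN2b against DN1 was at -3.56 (edgeR, adjusted p = 0.0326), and without the block at -3.31 (0.0693). All-gene calls in DN2a against DN1 and DN2b against DN1 were 58 and 233 with the block and 32 and 187 without it. Among the members the block changed no other call. By DESeq2, 474, 29 and 822 genes were called in DN2a against DN1, DN2b against DN2a and DN2b against DN1, where edgeR called 49, 0 and 233, and the share of lower calls was 73.6% in the first and 58.8% in the last against 51.0% and 46.8%. With library size only, the median log2FC over all genes in DN1 against the control moved from 0.01 to 0.27 and the share of lower calls from 54.3% to 38.6%.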
